A study of Mus musculus with 13 samples.

Results

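Eosinophils carry receptors for the constant part of antibodies (Fc receptors) and a set of receptors that hold activation in check, and 10 genes of these families were followed here. They are the Fc receptor-like gene Fcrls, the IgG receptors Fcgr1, Fcgr2b, Fcgr3 and Fcgr4, the signalling chain Fcer1g of the activating ones, and the paired receptors Pirb, Cd300lf, Cd300a and Sirpa. A member was taken wherever the annotation of a probe set named its symbol. All 10 were found with 1 probe set each, among 21395 genes of one table and 25003 of the other, so no choice between probe sets was needed.

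The study sorted eosinophils from the lamina propria (the connective tissue under the epithelium) of mouse small intestine on Clec4a4 (a C-type lectin receptor with an ITIM) and measured their RNA on 13 microarrays. In mice with mCherry knocked in at Clec4a4, 5 arrays held mCherry+ and 5 held mCherry- eosinophils. In a separate table of another array model, 1 array each held Clec4a4+ eosinophils of wild-type (WT) mice, Clec4a4- eosinophils of WT mice, and Clec4a4- eosinophils labelled as coming from Ahr knockout (KO) mice, which lack the ligand-activated transcription factor AHR. The reporter and WT comparisons address subset-specific genes, and the knockout the genes that need AHR in Clec4a4- eosinophils. Strain, age, the gates of the sort, and whether a sample was 1 mouse or a pool are not stated in the labels. The reporter arrays are labelled as biological replicates, with no word on what separates them, so p-values cover only the spread among these samples, which may be technical.

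Activating Fc receptors bind antibody on the outside and signal through a partner chain with an ITAM, a tyrosine motif that recruits the kinase SYK. Inhibitory receptors such as Fcgr2b, Pirb, Cd300a and Sirpa carry ITIMs, tyrosine motifs that recruit phosphatases and oppose that signal. Paired receptors are families in which closely related members send opposite signals. In mouse eosinophils, Pirb and Cd300a are known as brakes on activation or recruitment in some settings, not in all.

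All values are log2 intensities, and errors are SD for a group and SE for a difference. The 10 reporter arrays had medians between 5.18 and 5.27, and the other 3 between 4.73 and 4.75. Of 13 eosinophil markers 6 lay above the median of gene values on all reporter arrays, among them Ccr3 at 9.42 to 11.34 and Siglecf at 7.41 to 8.97, and 1 lay below it on all; the granule protein genes Epx and Prg3 averaged 4.53 and 4.72 in mCherry+. The reporter arrays also carried epithelial RNA: the mean of 18 epithelial markers was 8.67 and 8.33 in the mCherry+ and mCherry- arrays of number 1 and 10.45 to 11.29 in the other 8. In the single arrays that mean was 5.34 to 5.71. Clec4a4 stood at 9.18 ± 0.62 (n = 5) in mCherry+ and 7.52 ± 0.62 (n = 5) in mCherry- eosinophils, higher in 5 of 5 same-numbered pairs. Its adjusted p was 0.0814 in limma and 0.00204 with the array number as a block. Ahr was 1.00 higher in mCherry+, with an adjusted p of 0.346 in limma and 0.00233 with the block.

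Of the 10 genes, Fcrls alone passed the test between mCherry+ and mCherry- eosinophils, where it was higher, and the other 9 did not pass. Passing means a Benjamini-Hochberg adjusted p under 0.05 in limma over all 21395 genes. Over all of them 0.355% passed, 0.145% higher and 0.21% lower in mCherry+. The count of members was the same with the array number as a block, where 1.79% of all genes passed, 1.03% higher and 0.753% lower. At an unadjusted p under 0.05 in limma there were 3 members (Fcrls, Fcgr4 and Cd300a), against 7.34% of all genes. The median difference over the 10 genes was 0.14, against -0.01 over all genes.

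Fcrls, a scavenger receptor-like member of the Fc receptor-like family known in mice as a marker of microglia, stood at 8.30, 7.69, 8.36, 6.66 and 7.65 in mCherry+ arrays 1 to 5. In mCherry- arrays 1 to 5 it stood at 5.38, 5.88, 5.07, 5.23 and 5.31. Every mCherry+ array was above every mCherry- array, the lowest mCherry+ value being that of array 4. Groups that do not overlap were found for this member only, and for 1.91% of all genes. The difference was 2.36 (SE 0.30), 5.12-fold, with an adjusted p of 0.00739 in limma, or 0.00426 with the block. It was larger than the SD of 0.68 in mCherry+ and 0.30 in mCherry-, and pairs differed by 1.43 to 3.29. The mCherry- arrays lay near the table's median of gene values, 5.35, and those at 5.07, 5.23 and 5.31 lay below it. The size of the difference is thus that between a measured and a partly dim group.

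Of the IgG receptors, the activating receptor Fcgr4, which signals through the Fcer1g chain, had the next largest difference. It stood at 8.06, 7.45, 7.74, 6.24 and 7.38 in mCherry+ arrays 1 to 5 and at 6.23, 5.28, 5.80, 6.52 and 6.71 in the mCherry- arrays. Pairs 1, 2, 3 and 5 were higher in mCherry+, by 1.83, 2.18, 1.94 and 0.67, while pair 4 went the other way at -0.28, so the groups overlapped. The fitted difference was 1.27 (SE 0.35), 2.41-fold, with an adjusted p of 0.261 in limma and 0.146 with the block. With both arrays of number 4 left out, an alternative chosen after the data were seen, it was 1.65 (adjusted p = 0.0459 in limma). That choice removed the only pair that went the other way. With both arrays of number 1 left out, the difference was 1.13 (adjusted p = 0.516 in limma). Leaving out 1 array at a time, Fcgr4 passed in no fit, with adjusted p from 0.0502 to 0.547 in limma.

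The inhibitory receptor Cd300a, which binds phospholipids exposed on dying cells, went in the opposite direction. It stood at 8.62, 8.74, 8.45, 7.62 and 8.15 in mCherry+ arrays 1 to 5 and at 9.43, 8.92, 8.95, 8.59 and 9.10 in the mCherry- arrays. It was lower in mCherry+ in 5 of 5 pairs, by as little as -0.18 and as much as -0.97, and the groups overlapped, since mCherry+ arrays 1 and 2 lay above mCherry- array 4. The difference of -0.68 (SE 0.23) did not pass, with an adjusted p of 0.438 in limma and 0.059 with the block.

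**Figure D1:**
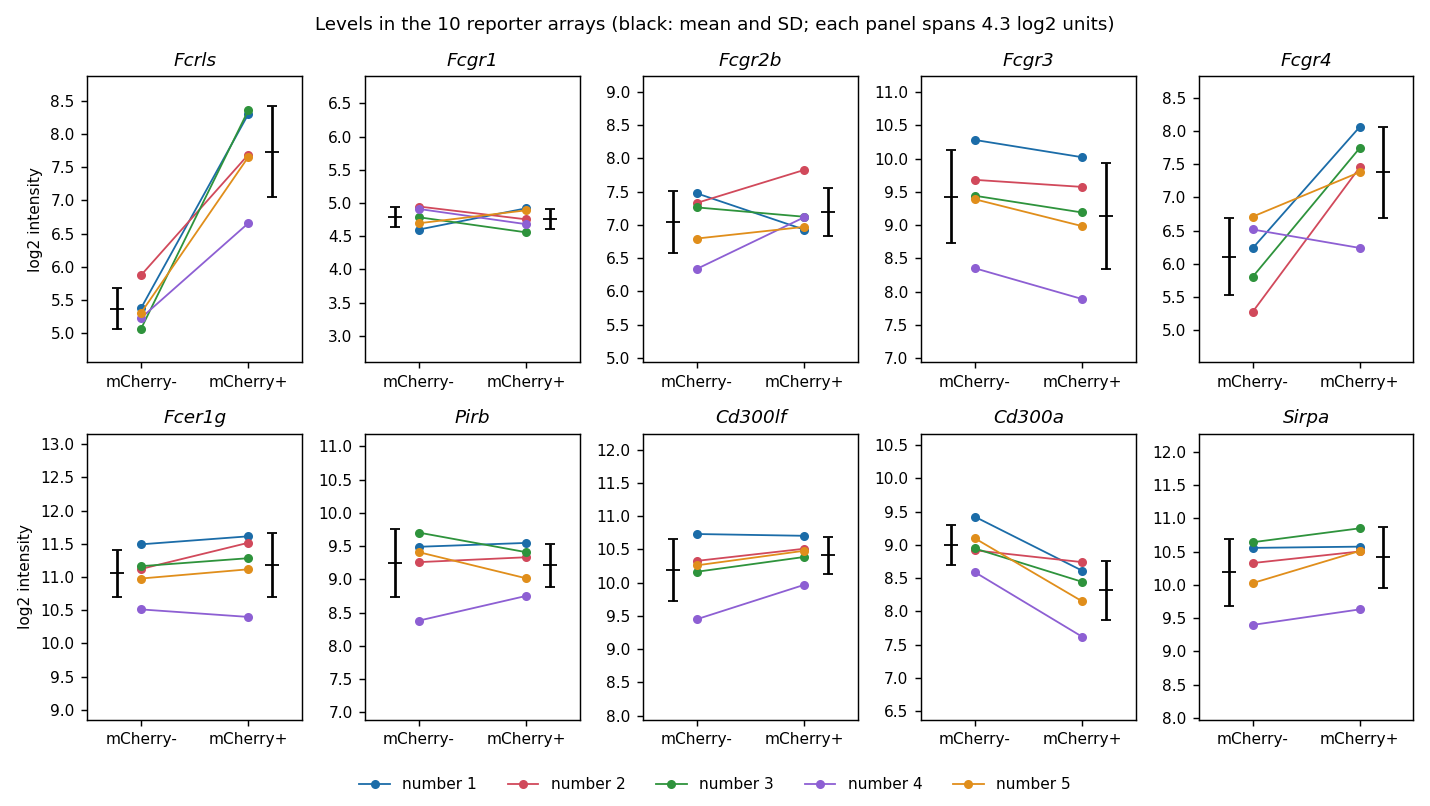
Log2 intensity of each of the 10 genes in the 5 mCherry- (left) and 5 mCherry+ (right) reporter arrays, with lines joining arrays of the same number and black bars for mean and SD (n = 5). Only for Fcrls do the groups not overlap; the arrays of number 4 lie lowest for most genes.

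The promoter windows of these 3 genes, which had the largest differences of the 10, are shown because the study asks which genes of the subsets depend on AHR. Sequences are from RefSeq on GRCm38.p6, from 250 bases before to 50 bases after a gene start, and 9 of the 10 genes had one, Fcgr3 with 2 overlapping windows. The Fcrls window lies at chr3:87263475-87263774 (- strand), that of Fcgr4 at chr1:171018676-171018975 (+ strand) and that of Cd300a at chr11:114889791-114890090 (+ strand). Capitals mark matches, on either strand, to GAGGAA, a core motif of the myeloid ETS factor Spi1, and to GATAA, a core motif of GATA factors; GCGTG, the core of AHR response elements, was searched too. No matches overlapped one another.
Fcrls promoter: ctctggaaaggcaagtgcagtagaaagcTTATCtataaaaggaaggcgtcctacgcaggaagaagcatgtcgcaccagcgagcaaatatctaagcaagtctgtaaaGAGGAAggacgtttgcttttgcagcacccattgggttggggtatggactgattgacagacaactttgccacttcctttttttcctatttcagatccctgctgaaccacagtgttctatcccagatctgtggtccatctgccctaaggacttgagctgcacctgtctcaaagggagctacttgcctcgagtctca
Fcgr4 promoter: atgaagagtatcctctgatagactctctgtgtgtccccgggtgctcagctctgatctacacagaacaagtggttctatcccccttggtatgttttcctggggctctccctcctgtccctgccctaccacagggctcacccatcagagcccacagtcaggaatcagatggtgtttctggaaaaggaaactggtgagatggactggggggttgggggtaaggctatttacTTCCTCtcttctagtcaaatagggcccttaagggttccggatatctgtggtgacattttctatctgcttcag
Cd300a promoter: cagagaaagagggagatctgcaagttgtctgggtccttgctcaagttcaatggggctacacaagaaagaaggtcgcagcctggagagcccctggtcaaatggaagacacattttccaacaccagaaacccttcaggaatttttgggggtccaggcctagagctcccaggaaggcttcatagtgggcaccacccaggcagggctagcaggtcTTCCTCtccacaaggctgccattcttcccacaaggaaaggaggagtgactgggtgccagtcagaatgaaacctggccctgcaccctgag
GCGTG had no match in these 3 windows, and among the 9 genes only Fcgr3 and Fcer1g held it, against 32.4% of all 32851 windows. GAGGAA was in windows of 7 of the 9 genes, Fcgr2b and Fcer1g being the ones without it, against 28.3% of all windows. GATAA was in those of Fcrls and Fcgr1, against 25.4%. A match describes letters in the window and does not show binding.

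The other IgG receptors differed by little. Fcgr3, the low-affinity activating receptor, stood at 10.02, 9.57, 9.19, 7.89 and 8.98 in mCherry+ arrays 1 to 5 and at 10.28, 9.68, 9.44, 8.35 and 9.39 in the mCherry- arrays. It was lower in mCherry+ in 5 of 5 pairs, yet by at most -0.46, while arrays within a group spanned more than that. The difference was -0.30 (SE 0.41, adjusted p = 0.972 in limma). With the block the SE was 0.095 and the adjusted p 0.233. Fcgr2b, the inhibitory IgG receptor, averaged 7.19 ± 0.36 in mCherry+ and 7.04 ± 0.47 in mCherry- (n = 5 each), a difference of 0.15 (SE 0.25, adjusted p = 0.979 in limma), with 3 pairs higher and 2 lower. Fcgr1, the high-affinity receptor typical of macrophages and monocytes, stood between 4.56 and 4.95, below the table's median on all 10 arrays, so its difference of -0.03 compares dim values. Fcgr2b, Fcgr4 and Fcgr3 follow each other on chromosome 1 with no other protein-coding gene between them, and Fcgr2b and Fcgr3 share closely similar extracellular parts, so cross-hybridisation between their probes is possible and was not tested.

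Fcer1g, the ITAM-bearing chain that the activating IgG receptors need at the cell surface, was high on every array, at 10.40 to 11.61. Its difference was 0.13 (SE 0.24, adjusted p = 0.982 in limma), with 4 pairs higher and 1 lower.

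Among the paired inhibitory receptors besides Cd300a, none passed. Sirpa, the receptor for the "do not eat me" signal CD47, was higher in mCherry+ in 5 of 5 pairs, by 0.02 to 0.48, a difference of 0.22 (SE 0.27, adjusted p = 0.964 in limma, and 0.331 with the block). Cd300lf, a mostly inhibitory CD300 family receptor, differed by 0.22 (SE 0.22, adjusted p = 0.953 in limma, and 0.371 with the block), higher in 4 of 5 pairs. Pirb, which binds MHC class I, differed by -0.04 (SE 0.25, adjusted p = 0.996 in limma), with 3 pairs higher and 2 lower. The PIR-A genes are near-identical copies of Pirb, and its probes may have measured some of their RNA too. In all, 4 of the 10 members had 1 sign in 5 of 5 pairs, Fcrls and Sirpa higher and Fcgr3 and Cd300a lower, against 11.9% of all genes (5.96% higher and 5.97% lower).

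**Figure D2:**
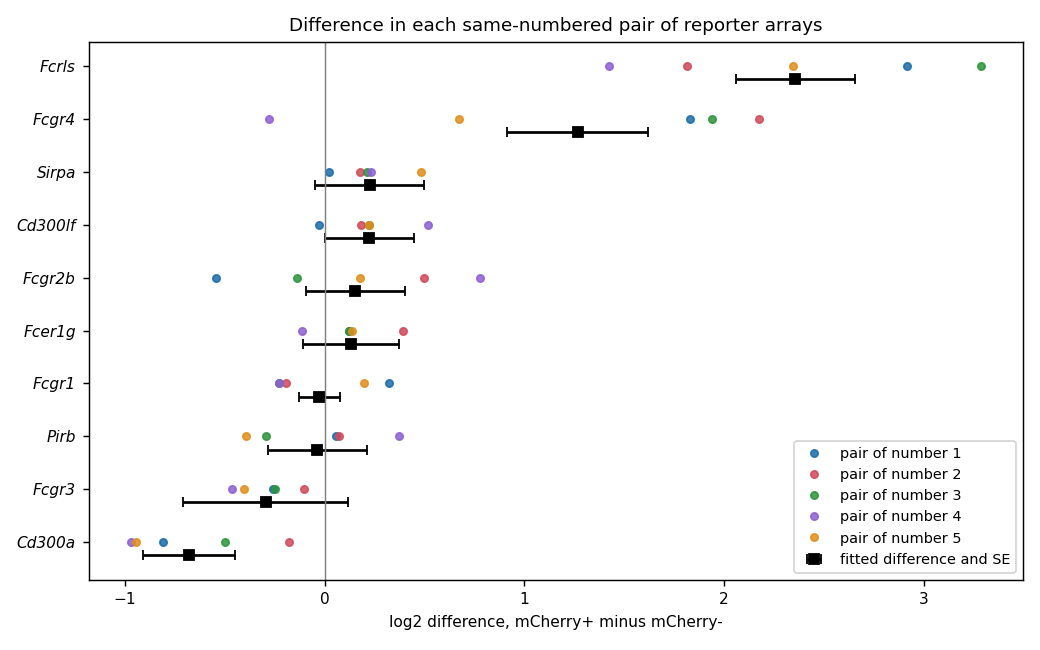
Log2 difference, mCherry+ minus mCherry-, in each of the 5 same-numbered pairs (coloured points) with the fitted difference and its SE (black squares), for the 10 genes. All 5 pairs lie right of 0 for Fcrls and Sirpa and left of 0 for Cd300a and Fcgr3; pair 4 of Fcgr4 lies at -0.28.

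Between arrays of 1 group the members had a median SD of 0.46, against 0.23 over all genes. The members were also brighter, with a median level of 8.94 against 5.38, and genes of like level were not compared. Much of the spread followed the array number. The arrays of number 4 were lowest for 8 members among the mCherry+ and for 7 among the mCherry- arrays, with median deviations from the group mean of -0.74 and -0.62. Arrays of number 1 were highest for 6 and 5 members, with median deviations of 0.32 and 0.40. The epithelial marker mean ran the other way, highest in number 4 (11.18 in mCherry+ and 11.29 in mCherry-) and lowest in number 1. With that mean as a covariate the Fcrls difference was 2.35 (adjusted p = 0.00313 in limma). Number 4 was also highest in mCherry+ and mCherry- for macrophage and monocyte (6.37 and 6.28) and B and plasma cell markers (6.31 and 5.85). The same held for stromal and endothelial markers (7.28 and 7.09), while the eosinophil mean was lowest there (7.03 and 7.18). The neutrophil, dendritic, mast, and T, NK and innate lymphoid cell means were not highest there in both groups. In bulk samples, fewer cells of a type and less RNA per cell cannot be told apart.

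**Figure D3:**
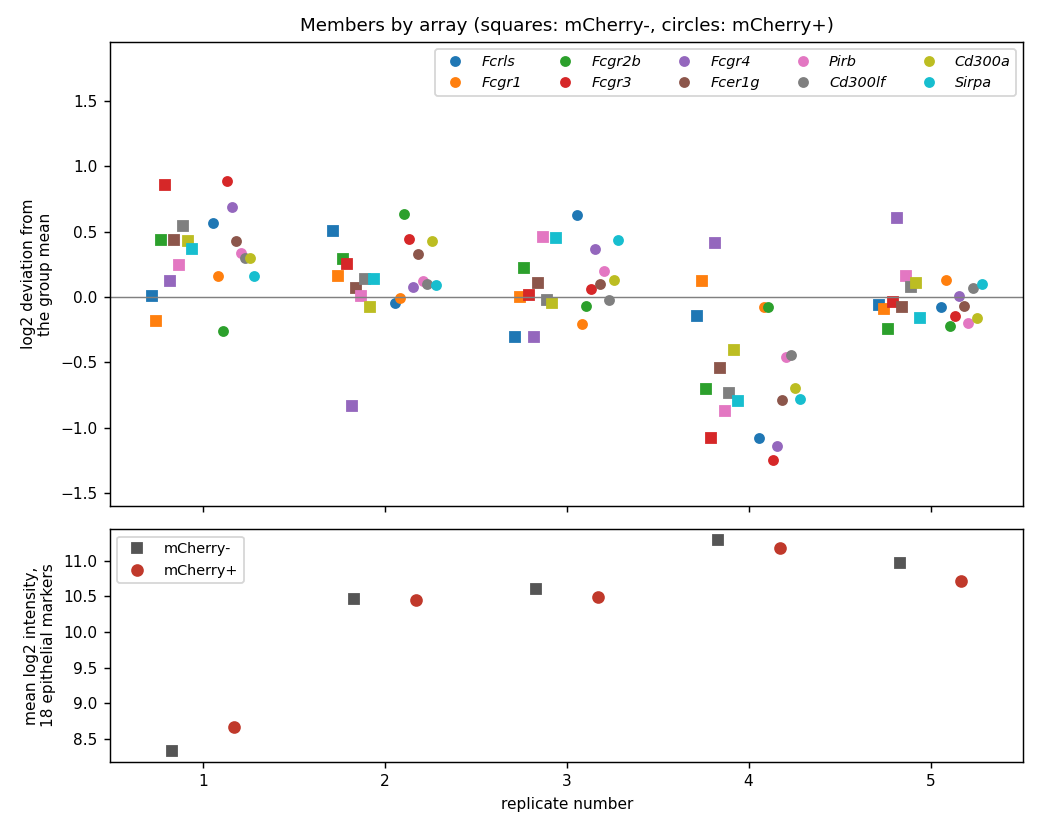
Top, log2 deviation of each of the 10 genes from its group mean by replicate number, squares for mCherry- and circles for mCherry+ arrays. Bottom, mean log2 intensity of 18 epithelial markers on the same arrays; number 4 combines the lowest median deviations (-0.62 and -0.74) with the highest epithelial means (11.29 and 11.18).

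Fcrls and the IgG receptors are also expressed by other myeloid cells, whose markers were therefore measured. The mean of 13 macrophage and monocyte markers lay between 5.53 and 6.37 in mCherry+ and between 5.63 and 6.28 in mCherry- arrays, and none of the 13 passed. With the block Cd68, a lysosomal macrophage marker, rose by 1.28 (adjusted p = 0.0423 in limma, 0.0536 without the block), higher in 5 of 5 pairs as Fcrls was, while Cd14 differed by -2.18 without passing in either fit. The mean of 11 neutrophil markers was 5.70 to 5.89 in mCherry+ and 6.45 to 7.22 in mCherry- arrays. Of these, S100a8 and S100a9 fell, the other 9 did not pass, and 4 of the 11 lay below the table's median on all arrays. The mean of 7 dendritic cell markers was 4.77 to 5.03 and 4.68 to 5.06, and that of 8 measured B and plasma cell markers 5.03 to 6.31 and 5.11 to 5.85, in mCherry+ and mCherry- in this order. Markers of T, NK and innate lymphoid cells averaged 5.59 to 6.54 and 5.39 to 6.52, and 7 stromal and endothelial markers 6.24 to 7.28 and 5.995 to 7.09. The stromal mean was higher in mCherry+ in 5 of 5 pairs, and of its markers Pecam1 (0.78), which leukocytes also express, passed with the block only (adjusted p = 0.0121 in limma). The mean of the 13 eosinophil markers was lower in mCherry+ in 5 of 5 pairs, at 7.03 to 7.80 against 7.18 to 8.35. Of these 1 fell, the ribonuclease gene Ear6 (-2.87), and with the block 4 fell (Ear6, Ear1, Ear2 and the granule gene Prg2) and 1 rose (the integrin gene Itgax, 0.91). Single markers were brighter than these means. By mean level over the 10 arrays, the highest was Apoe (8.25) for macrophages and monocytes, and Retnlg (12.13) for neutrophils. It was Ccr7 (6.24) for dendritic cells, Jchain (9.85) for B and plasma cells and Hdc (10.76) for mast cells. Of the remaining lists it was Gzmb (7.93, T, NK and innate lymphoid), Dcn (9.41, stromal), Apoa1 (11.92, epithelial) and Cd24a (11.04, eosinophil). The part of other cell types in the members' differences was not tested.

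By profile over the 10 reporter arrays, the 3 genes most like Fcrls were the polysialyltransferase St8sia4, the cytochrome P450 gene Cyp1b1 and Pmvk, an enzyme of cholesterol synthesis. Likeness was the mean absolute difference between log2 values centred on each gene's own mean, which was 0.32 for St8sia4, 0.40 for Cyp1b1 and 0.41 for Pmvk, against a median of 1.19 over all other genes. All 3 were higher in mCherry+, by 1.75, 2.81 and 1.54, and all 3 had their lowest mCherry+ value in array 4, as Fcrls had. They were picked by their values on these same 10 arrays, so this likeness follows from the choice and is no separate result. On the WT Clec4a4+ and WT Clec4a4- arrays, St8sia4 stood at 7.92 and 7.22 and Pmvk at 8.16 and 6.37. Cyp1b1 stood at 4.92 and 4.70 there, the latter below that table's median.

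The further genes of these pathways were read from lists. Of 12 other Fc receptors none passed (0 higher, 0 lower), 1 had an unadjusted p under 0.05 in limma (7.34% of all genes had), and 7 lay below the table's median on all arrays. Fcrl1, an Fc receptor-like gene best known from B cells, differed by 0.86 (SE 0.17, adjusted p = 0.0617 in limma), higher in 5 of 5 pairs, and passed with the block (0.0194). Fcer2a, the low-affinity IgE receptor, differed by 0.28 and stood at 4.96 or less on every array. The IgE receptor subunit Fcer1a stood at 2.62 to 3.45, and the mast cell markers as a list had means of 4.80 to 5.54 in mCherry+ and 4.90 to 5.35 in mCherry- arrays.

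Of 27 other paired receptors 22 were measured, and none passed, with 4 at an unadjusted p under 0.05 in limma, a share to be read against 7.34% of all genes. Cd300lb, a CD300 receptor that activates through a partner chain, stood at 5.74, 5.73, 5.24, 5.33 and 5.40 in mCherry+ arrays 1 to 5 and at 7.48, 6.57, 7.04, 6.21 and 6.28 in the mCherry- arrays. The groups did not overlap, and the difference of -1.23 (SE 0.24) had an adjusted p of 0.0625 in limma and 0.0182 with the block. Leaving out 1 array at a time, it passed only without array 4 of mCherry- (adjusted p = 0.0429 in limma). In the other such fits the adjusted p was up to 0.182. Sirpb1a, an activating relative of Sirpa, differed by 0.94 (SE 0.32, adjusted p = 0.438 in limma), higher in 4 of 5 pairs. Pilra, an inhibitory receptor picked after its value was seen, differed by 0.54 and passed only with the block (adjusted p = 0.0122).

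Of 26 genes of ITAM and ITIM signalling, 1 rose and none fell, against 0.355% of all genes passing in either direction, and the median was -0.11. At an unadjusted p under 0.05 in limma there were 5, a share to be read against 7.34% of all genes. The gene that rose was Dok1, an adaptor that acts downstream of inhibitory receptors. It stood at 6.09, 6.58, 6.42, 5.85 and 5.76 in mCherry+ arrays 1 to 5 and at 5.26, 4.44, 5.43, 4.76 and 4.44 in the mCherry- arrays. The difference was 1.28 (SE 0.23, adjusted p = 0.0462 in limma), but 4 of the 5 mCherry- values lay below the table's median of 5.35, so its size is that between a measured and a dim group. The call of Dok1 ended without any 1 array except array 4 of mCherry+ and array 3 of mCherry-, with adjusted p up to 0.134. It also ended without trend and robust moderation (0.0513). With the block 2 rose and 1 fell, where 1.03% of all genes rose and 0.753% fell. Beside Dok1 these were the Src family kinases Lyn, which phosphorylates both kinds of motif, at 0.69 (adjusted p = 0.0119), and Fgr at -0.70 (0.038), both named after their values were seen. The kinase Syk differed by -0.13, the phosphatase gene Ptpn6 by -0.16 and the ITAM adaptor Tyrobp by 0.05, none of them past the test. Of 8 ligand genes 4 were measured and none passed (0 also at an unadjusted p under 0.05 in limma), with Ighm at 1.06 (SE 1.04), Cd200 at 0.39 and Cd47 at 0.22.

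**Figure D4:**
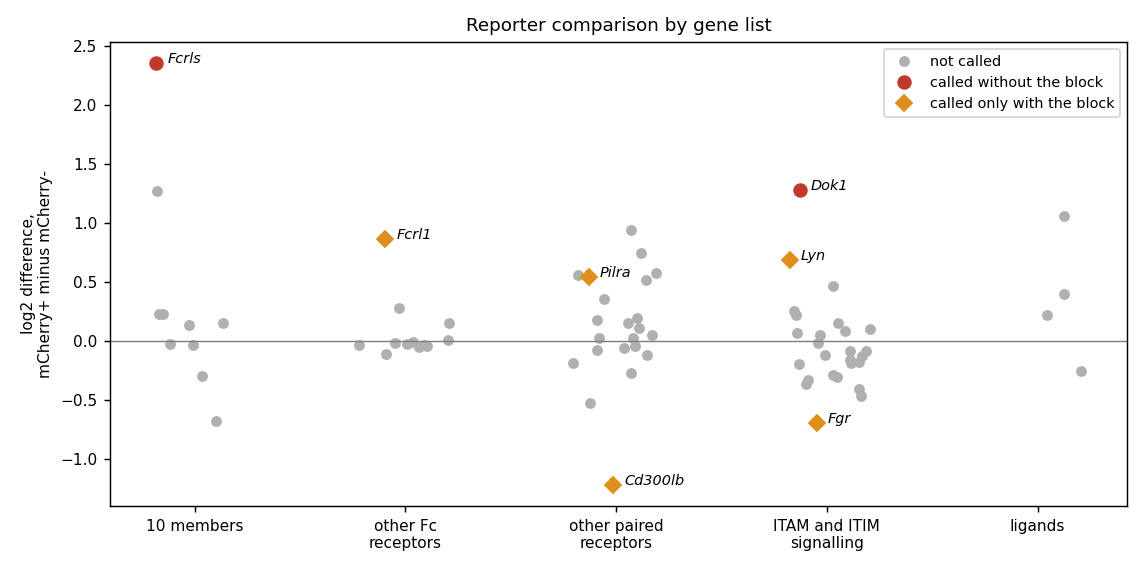
Log2 difference, mCherry+ minus mCherry-, of each measured gene in the reporter comparison, by list. Red points passed limma's test without the block, orange diamonds only with it, and grey points in neither fit; Fcrls (2.36) and Dok1 (1.28) are the red points.

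In WT mice the subsets were sorted by Clec4a4 itself, with 1 array each, so differences have no replicate check. Clec4a4 stood at 9.14 in the WT Clec4a4+ and 5.56 in the WT Clec4a4- array. Of the 10 members, 2 were 2-fold or more higher in the Clec4a4+ array and none lower. Genes whose values were both under this table's median, 4.79, were not counted. Among all genes 1.67% were so far apart, 0.64% higher and 1.03% lower in Clec4a4+.

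Fcrls stood at 6.41 in the WT Clec4a4+ array and at 4.41 in the WT Clec4a4- array. The lower value was below the table's median, so Fcrls was at least 3.07-fold higher, computed against 4.79. Fcgr4 stood at 8.34 against 6.78, 2.95-fold higher. Cd300a stood at 7.68 against 8.29 a difference of -0.60, and Fcgr3 at 9.68 in the Clec4a4- array, with a difference of -0.68, both short of 2-fold. Pirb differed by 0.43, Sirpa by -0.17, Fcer1g by 0.10, and Fcgr2b and Cd300lf by 0.02 each. Fcgr1 was below the median on all 3 arrays, at 4.38 to 4.64. The mean of the 7 dendritic cell markers was 5.28 in the Clec4a4+ array and 4.48 in both others. Of these markers, Cd209a had the largest difference, at 7.64 in WT Clec4a4+, 4.10 in WT Clec4a4- and 4.02 in the array labelled Ahr KO. Itgae was 2.17-fold higher in WT Clec4a4+ than in WT Clec4a4-, Xcr1 differed by 0.33 and Ccr7 by 0.03. Flt3, Zbtb46 and Clec9a lay below the table's median on all 3 arrays. The mean of the 13 macrophage and monocyte markers was 5.51, 5.44 and 5.51 in the same order. Among these 13, Cd68 was 2.12-fold higher in WT Clec4a4+ than in WT Clec4a4- (8.46 against 7.37) and Csf1r 2.01-fold lower. The mean of the 9 T, NK and innate lymphoid markers was 5.07, 4.68 and 4.78, with Cd3g 2.50-fold higher in WT Clec4a4+ than in WT Clec4a4-. Cd3g had the largest measured difference of the 9 between the WT arrays, and stood at 6.72, 5.40 and 6.24, so WT Clec4a4- was the low array. Cd8a, Cd4, Gzmb and Klrb1c lay below the table's median on all 3 arrays. The mean of the 11 neutrophil markers was 5.36 in WT Clec4a4+, 5.66 in WT Clec4a4- and 5.77 in the array labelled Ahr KO. Between the WT arrays Cxcr2 was 2.06-fold higher in Clec4a4+, S100a9 2.46-fold lower and S100a8 at least 3.75-fold lower. The mean of the 13 eosinophil markers was 7.94, 8.34 and 8.20, with Prg2 2.30-fold lower in WT Clec4a4+. No other marker of these lists was 2-fold apart between the WT arrays. The part of other cell types in the Fcrls and Fcgr4 values was not tested.

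The array labelled Ahr KO Clec4a4- can address the need for AHR in Clec4a4- eosinophils only. Ahr itself stood at 11.12 in that array, against 11.08 in WT Clec4a4- and 11.11 in WT Clec4a4+. The level thus did not separate the array labelled KO from the WT arrays, and the sources used here do not give which part of the gene was deleted or where the probes lie, so it neither bears out nor contradicts the label. Of the 10 members none was 2-fold or more apart from the WT Clec4a4- array, against 1.36% of all genes (0.592% higher and 0.772% lower). This comparison and the one between the WT arrays share the WT Clec4a4- array. Clec4a4 stood at 3.93 in the array labelled Ahr KO, below the table's median, against 5.56 in WT Clec4a4-, so it was at least 1.71-fold lower. Both Clec4a4- arrays thus also differed from each other in the gene used for the sort.

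Fcrls stood at 4.41 in the array labelled Ahr KO, the same as in WT Clec4a4-, both below the table's median. Fcgr4 stood at 7.02, which is 0.25 above WT Clec4a4-, and its difference from WT Clec4a4+ was -1.31. With no Clec4a4+ array from Ahr KO mice among those analysed here, whether the high Fcrls and Fcgr4 levels of Clec4a4+ cells need AHR cannot be told. Fcgr3 had the largest difference of the 10, at 8.75 against 9.68 in WT Clec4a4- (-0.93, 1.90-fold lower). Pirb stood at 8.94, as in the WT Clec4a4+ array (8.94), and 0.43 above WT Clec4a4-. Cd300a stood at 7.89, between both WT arrays. Cd300lf differed from WT Clec4a4- by 0.23, Sirpa by -0.26, Fcgr2b by 0.08 and Fcer1g by -0.05.

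**Figure D5:**
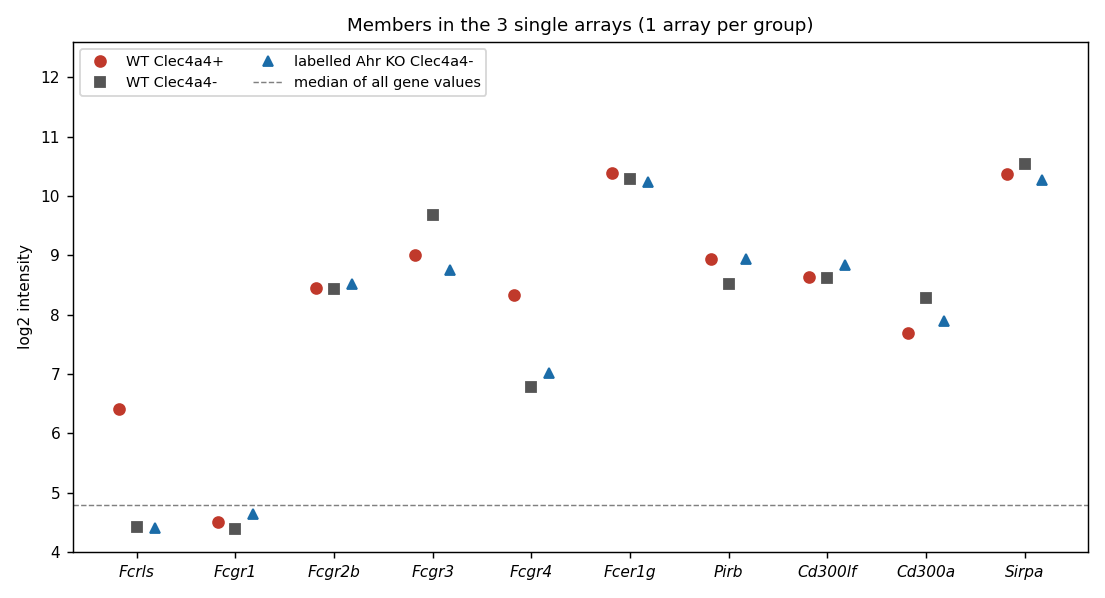
Log2 intensity of the 10 genes in the WT Clec4a4+ (circle), WT Clec4a4- (square) and labelled Ahr KO Clec4a4- (triangle) arrays, 1 array each; the dashed line is the median of all gene values, 4.79. Fcrls and Fcgr4 are higher in the Clec4a4+ array, and levels of different genes come from different probes and are not to be set against each other.

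Of the 24 other paired receptors measured on these arrays, 5 were 2-fold or more higher in the array labelled Ahr KO than in WT Clec4a4- and none lower, against 0.592% of all genes higher. They were picked after their values were seen, and the median difference over the list was 0.0059. Cd300c stood at 8.57 in WT Clec4a4+, 6.98 in WT Clec4a4- and 8.16 in the array labelled Ahr KO. Sirpb1a stood at 6.56, 4.62 and 6.52 in this order, which makes it at least 3.31-fold higher in the array labelled Ahr KO than in WT Clec4a4-. These 2 were also 2-fold or more higher in WT Clec4a4+ than in WT Clec4a4-. The inhibitory collagen receptor Lair1 stood at 9.01, 8.15 and 9.23, the activating receptor Trem1 at 8.40, 8.43 and 9.58, and Treml4 at 8.93, 8.46 and 9.71. Cd300lb stood at 5.19 in WT Clec4a4+ and 6.88 in WT Clec4a4-, and the array labelled Ahr KO differed from the latter by -0.87. With 1 array per group, a low value of the shared WT Clec4a4- array alone would raise both differences.

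Outside the paired receptors, Fcrl1 stood at 8.33, 7.39 and 7.68 in WT Clec4a4+, WT Clec4a4- and the array labelled Ahr KO, and Dok1 at 6.39, 5.32 and 5.38. Dok1 was thus 2.10-fold higher in WT Clec4a4+ than in WT Clec4a4-, the only one of the 26 signalling genes 2-fold apart between the WT arrays, and none was 2-fold apart between the array labelled Ahr KO and WT Clec4a4-.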

How the data were processed

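Total RNA of sorted eosinophils was amplified from a small input into biotin-labelled cDNA, per the labels' protocols. The deposited tables hold log2 intensities made by the authors with RMA, per the submitters' processing notes, whose version the sources used here do not give. Reporter arrays (10) and single arrays (3) are of different models and fill separately normalized tables, so values were compared within a table only. For arrays, their number limits the precision.

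Genes were named by Entrez identifier through a RefSeq table (22106 of 22549 identifiers matched in the reporter table and 24119 of 25349 in the other), or else by accession (1280 and 1333), with 11727 and 1678 probe sets left unnamed. The brightest probe set of a gene was kept. For mCherry+ against mCherry-, limma (3.58.1, under R 4.3.3) was run two-sided with trend = TRUE and robust = TRUE and no covariate, and its script was tested on simulated data. Arrays of the same number deviated together (correlations of 0.658, 0.166, 0.171, 0.526 and 0.199 for numbers 1 to 5), so the result with the number as replicate block stands beside each result whose call it changes; no label says what the number stands for. No test was made on the single arrays, where a value under 4.79 gives a bound. No protein sequences were used here.

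Named were the 10 members and, of each list, the called genes or, with none called, the 2 with the largest change. Named too were the 3 genes most like a called member, checks of the sort and the knockout, and called or leading cell type markers. Some further genes were named outside this rule, and their choice was not fixed beforehand. Among them were Syk, Ptpn6, Tyrobp, Cd47, Fcer1a, Cd14, Csf1r, Cd209a, Cd3g and Cxcr2. The members and lists were chosen with earlier results of these data known.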

Additional observations from a re-analysis of the deposited data

Results flagged for a closer look

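Of 20 groups of 5 arrays tested for a sample far from the others (10 genes in mCherry+ and mCherry-), 2 held one, and chance gives about 1 in 20. Fcgr2b stood at 7.83 in array 2 of mCherry+, with the next array at 7.12. Sirpa stood at 9.63 in array 4 of mCherry+, with the next array at 10.50.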

How the results depend on the processing

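The Fcrls call held in all alternatives run, with a difference of 2.22 to 2.59 (adjusted p up to 0.0444 in limma, without both arrays of number 1) and, leaving out 1 array at a time, of 2.20 to 2.63 (adjusted p up to 0.0329 in limma). The members called were 2 without both arrays of number 4 (Fcgr4 joining at 1.65) and 1 otherwise. Of all genes, 76 were called, and 382 with the replicate block (221 higher, 161 lower), 119 with dim genes left out (51 higher, 68 lower), 201 with the epithelial mean as a covariate (96 higher, 105 lower), 40 without both arrays of number 1, 135 without both arrays of number 4, and 29 to 115 leaving out 1 array. With dim genes left out Fcgr1 has no value. Of the other Fc receptors 1 was called with the block, with dim genes left out, or with the covariate. Of the other paired receptors 2 were called with the block, 1 with dim genes left out or with the covariate, and 0 to 1 leaving out 1 array. Of the signalling genes 3 were called with the block, 0 without trend and robust moderation, 0 without both arrays of number 1 or of number 4, and 0 to 1 leaving out 1 array. Among uncalled members signs turned for Fcgr1 (0.024) and Fcgr2b (-0.0037) without both arrays of number 4, and, leaving out 1 array, for Fcgr1 (-0.074 to 0.024), Fcgr2b (-0.023 to 0.26), Fcgr3 (-0.57 to 0.014), Fcer1g (-0.0032 to 0.33) and Pirb (-0.25 to 0.078). The cause was not tested. Of the single arrays, 2 and 0 members were 2-fold apart under each alternative run for that count. Without the bound, Fcrls differed by 2.00 between the WT arrays. The replicate block changed no member's call.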
